A study of Drosophila melanogaster with 6 samples.

Results

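Aminoacyl-tRNA synthetases were examined in wing imaginal discs of Drosophila melanogaster, the larval epithelia from which the wings and the back of the thorax develop. Members were the array features with a single gene symbol that is a 3-letter amino acid code followed by RS, and the suffix -m marked the mitochondrial enzymes. The rule found 27 genes among 11303 features tested, 14 cytosolic and 13 mitochondrial. The RefSeq gene table lists 32 symbols of this form, and AlaRS-m, AspRS, CysRS-m, HisRS and MetRS were not analysed here. Another 3 cytosolic synthetases, alpha-PheRS, beta-PheRS and GluProRS, carry a Greek letter or a second amino acid code in the symbol. They fall outside the rule and are given beside it and counted apart.

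The 6 biotin-labelled total RNA samples, each on a single-channel array, formed 2 groups of 3. In the Yki group, labelled ap>YAP/Yki, Yki, the transcriptional co-activator that the Hippo pathway holds in check and that drives growth, was expressed with the apterous driver. In the Yki + pan RNAi group, labelled ap>YAP/Yki+dTcf/Pan-RNAi, Yki came with a hairpin for RNA interference under the same driver. The hairpin targets pan, the gene of dTcf, through which Wg (Wnt) signals reach DNA. Discs of both groups were taken 7 days after the transgenes were induced, and all discs expressed Yki, so that nothing here compares Yki with no Yki. The apterous driver is active in the dorsal compartment, and RNA of the whole disc mixes cells with and without it. The level of pan was not analysed here. The labels name neither discs without Yki nor a control hairpin.

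Each aminoacyl-tRNA synthetase joins 1 amino acid to its tRNAs, the step that sets the meaning of the genetic code. The enzymes fall into class I and class II by the fold of their catalytic domain. Cytosolic enzymes charge the tRNAs that serve the nuclear genes' messages. Mitochondrial enzymes are also nuclear-encoded, are imported, and charge the tRNAs with which mitochondria translate the few respiratory chain subunits of their own genome. Some synthetase genes, such as those for glycine and lysine in humans, make both forms, so an enzyme without the suffix -m is called cytosolic here by its symbol alone. In animals several cytosolic enzymes sit in a multi-synthetase complex around scaffold proteins, the AIMPs. Synthetase genes are also known targets of the transcription factor ATF4 (crc in flies), which is induced when amino acids are scarce.

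Transcripts of several cytosolic synthetases and of a single mitochondrial one were lower in discs with pan RNAi. Of the 14 cytosolic enzymes, 5 fell (CysRS, ArgRS, LeuRS, TyrRS and AsnRS) and 0 rose, with a median change of −0.15 on the log2 scale. Of the 13 mitochondrial enzymes, 1 fell (AsnRS-m) and 0 rose, with a median of −0.04. Both subunits of the cytosolic enzyme for phenylalanine, alpha-PheRS and beta-PheRS, fell as well. The falls were small, 1.18-fold to 1.28-fold in these 8 genes, and 0 of the 27 members moved by as much as 2-fold, as 1.53% of all features did with an adjusted p under 0.05.

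Here and below a change is Yki + pan RNAi minus Yki in log2 levels with the SE of a limma fit across all features. A gene rose or fell if its p, adjusted by the Benjamini-Hochberg method over 11303 features, was under 0.05. Of all features 13.4% fell and 12.1% rose, against 5 of 14 cytosolic and 1 of 13 mitochondrial members that fell. At an unadjusted p under 0.05 in limma, 8 cytosolic and 2 mitochondrial members differed. The median change of all features was 0.03. The change was below 0 in 13 of 14 cytosolic and 9 of 13 mitochondrial members, and in 42.8% of all features. With each array centred on its own median the medians were −0.09 and 0.01, beside 0.09 for all features. Under that centring the same 5 cytosolic enzymes and AsnRS-m still fell, while 9.57% of all features did, and the split of all calls moved from 1369 higher and 1518 lower to 2096 higher and 1082 lower.

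**Figure D1:**
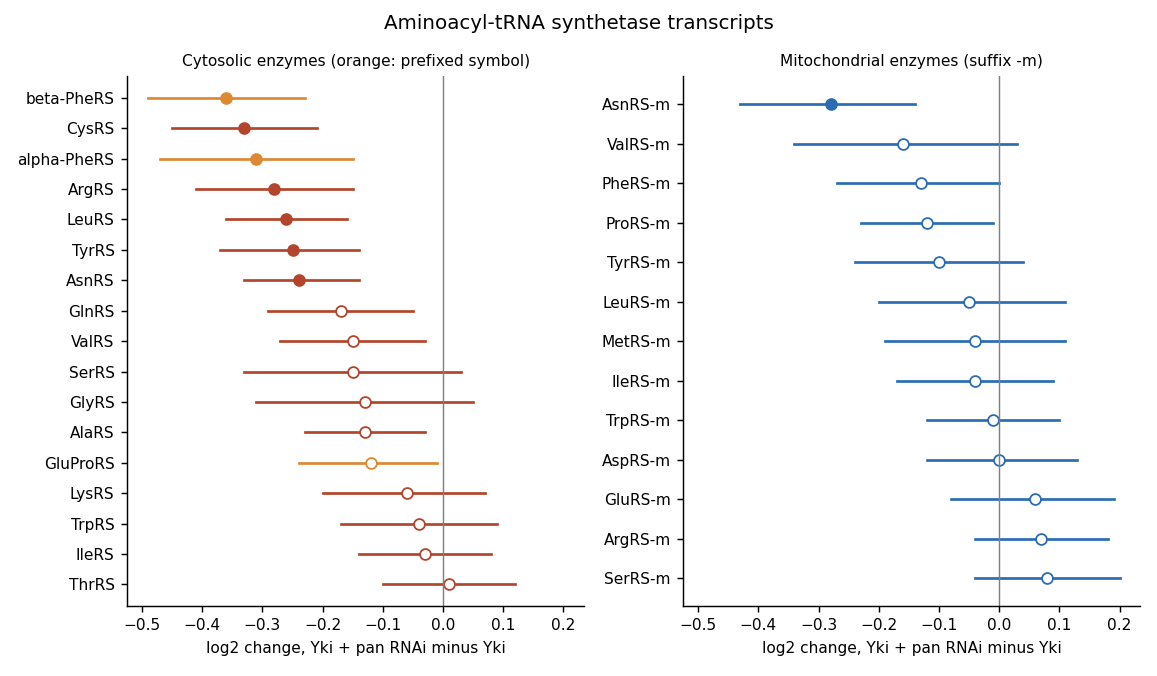
Log2 change (Yki + pan RNAi minus Yki) of each cytosolic (left) and mitochondrial (right) synthetase, with the 95% confidence interval of the limma fit as a line. Filled points passed the adjusted p, and the enzymes in orange have prefixed symbols. The 7 filled points at left and the 1 at right all lie below 0, at −0.24 or lower.

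Among the cytosolic enzymes, CysRS, the class I enzyme for cysteine, had the largest fall of the members. Its log2 level was 9.84, 9.85 and 9.84 in the 3 Yki arrays and 9.52, 9.44 and 9.58 with pan RNAi. All the pan RNAi arrays lay well under the Yki arrays, which differed among themselves by only 0.01 (SD). The change was −0.33 ± 0.05, or 1.26-fold lower (n = 3 arrays per group, limma adjusted p = 0.00493).

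ArgRS, the class I enzyme for arginine and a part of the multi-synthetase complex in vertebrates, stood at 9.63, 9.60 and 9.75 without pan RNAi and at 9.33, 9.39 and 9.41 with it. The groups did not overlap, and the change was −0.28 ± 0.06 (limma adjusted p = 0.0129). LeuRS, for leucine, also of that complex, was at 9.07, 9.09 and 9.07 against 8.80, 8.84 and 8.82. This is a tight separation, with an SD of 0.01 and 0.02 in the groups and a change of −0.26 ± 0.04 (limma adjusted p = 0.00588). TyrRS, the class I enzyme for tyrosine, which acts outside the complex, gave 10.61, 10.66 and 10.69 without and 10.36, 10.40 and 10.44 with pan RNAi. Its change was −0.25 ± 0.05 (limma adjusted p = 0.0102), again with no overlap.

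AsnRS, the class II enzyme for asparagine, was the most even of all, at 8.02, 8.01 and 8.02 against 7.78, 7.77 and 7.79. That is a change of −0.24 ± 0.04, 1.18-fold (limma adjusted p = 0.00706), many times the SD of 0.01 in either group.

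The cytosolic enzyme for phenylalanine is built from an alpha and a beta subunit, and the transcripts of both fell by similar amounts. For beta-PheRS the levels were 9.75, 9.81 and 9.82 in Yki discs and 9.50, 9.35 and 9.47 with pan RNAi. This was a fall of 0.36 on the log2 scale, 1.28-fold (limma adjusted p = 0.00524). For alpha-PheRS they were 9.48, 9.52 and 9.62 against 9.14, 9.22 and 9.33, a change of −0.31 ± 0.07 (limma adjusted p = 0.0160). The groups of both subunits were apart in every array. The call of alpha-PheRS ended without Yki replicate 3 (adjusted p = 0.0544) and without Yki + pan RNAi replicate 1 (adjusted p = 0.0527), and that of ArgRS without the latter (adjusted p = 0.0503). With the prefixed symbols counted in, 7 of 17 cytosolic enzymes fell.

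**Figure D2:**
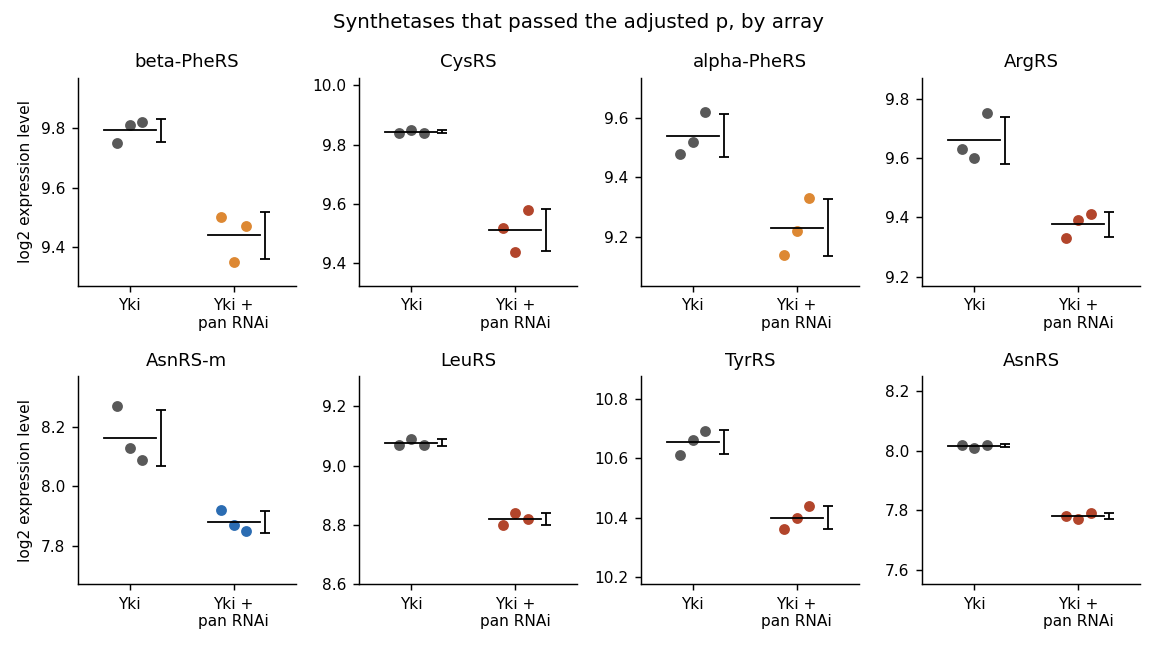
Log2 level of the 8 synthetases that passed the adjusted p in each array (points), with the group mean (line) and SD (bar, n = 3). Every panel spans the same range of log2 units around the gene's mean, so the gaps can be compared, and in all 8 panels the 3 pan RNAi arrays lie below the 3 Yki arrays.

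The other cytosolic enzymes lay closer to no change, some of them near the threshold. GlnRS, for glutamine, was at 9.65, 9.71 and 9.76 without and 9.56, 9.48 and 9.57 with pan RNAi, a change of −0.17 ± 0.05 that missed the threshold (limma adjusted p = 0.0531). It had the largest change among the synthetases that did not pass, and the smallest change that passed was 0.24 in size. ValRS, for valine, gave 7.84, 7.91 and 7.92 against 7.74, 7.80 and 7.69 (−0.15 ± 0.05, limma adjusted p = 0.0749). The arrays of both enzymes were separated by group although neither passed. AlaRS, for alanine, and the bifunctional GluProRS, which charges both glutamate and proline tRNAs in animals, were similar at −0.13 and −0.12 (limma adjusted p = 0.0723 and 0.107). When the dimmest 25% of features were left out of the fit, GlnRS, ValRS and AlaRS passed as well (adjusted p = 0.0330, 0.0483 and 0.0420), and the count of fallen cytosolic members became 8.

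SerRS, the enzyme for serine, did not pass, and 1 of its pan RNAi arrays lay apart from the rest. The levels were 9.93, 9.89 and 9.92 in Yki discs and 9.71, 9.65 and 9.93 with pan RNAi. The pan RNAi replicate 3 thus lay among the Yki arrays, and the change was −0.15 ± 0.08 (limma adjusted p = 0.196), or −0.23 (limma adjusted p = 0.0293) without that array. With each array left out in turn, the limma adjusted p ran from 0.0293 to 0.417. GlyRS, for glycine, had the same kind of spread, at 9.45, 9.51 and 9.51 against 9.31, 9.52 and 9.25 (−0.13 ± 0.08, limma adjusted p = 0.239). There it was replicate 2 of the pan RNAi group that lay with the Yki arrays, and without it the change was −0.21 (adjusted p = 0.0484). Over all such leave-outs the limma adjusted p of GlyRS ran from 0.0484 to 0.52. In both genes the array whose removal gave a call was the one that went against the fall.

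IleRS, LysRS, TrpRS and ThrRS, for isoleucine, lysine, tryptophan and threonine, changed least among the cytosolic enzymes. IleRS was at 10.24, 10.27 and 10.29 against 10.18, 10.29 and 10.24, and TrpRS at 8.09, 8.07 and 8.21 against 8.13, 8.09 and 8.02. The groups overlapped in each of the 4 genes. Their 95% confidence intervals ran from −0.14 to 0.08 for IleRS, −0.20 to 0.07 for LysRS, −0.17 to 0.09 for TrpRS and −0.10 to 0.12 for ThrRS. These intervals leave out a fall as large as that of CysRS, and the first 3 still contain falls of over 0.1. IleRS and LysRS belong to the same vertebrate complex as ArgRS and LeuRS. The direction of IleRS and TrpRS turned with median centring (0.02 for each).

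Of the mitochondrial enzymes, AsnRS-m alone fell. It was at 8.27, 8.13 and 8.09 in Yki discs and at 7.92, 7.87 and 7.85 with pan RNAi, without overlap, a change of −0.28 ± 0.06 (limma adjusted p = 0.0172). The adjusted p was 0.0506 when Yki + pan RNAi replicate 2 was left out, where the change was again −0.28. The gap was as large as that of ArgRS, with a wider spread among its Yki arrays (SD 0.10).

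ValRS-m was next, at 7.35, 7.47 and 7.26 against 7.12, 7.32 and 7.18. The groups overlapped and the change was −0.16 ± 0.08 (limma adjusted p = 0.184). PheRS-m, the single-chain mitochondrial enzyme for phenylalanine, was at 9.46, 9.28 and 9.34 against 9.23, 9.25 and 9.20, and ProRS-m at 8.53, 8.55 and 8.56 against 8.44, 8.47 and 8.36. Both had every pan RNAi array below every Yki array, at −0.13 and −0.12 with limma adjusted p of 0.135 and 0.109. TyrRS-m was at 7.70, 7.84 and 7.70 without pan RNAi and 7.59, 7.69 and 7.67 with it (−0.10 ± 0.06, limma adjusted p = 0.259).

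The remaining 8 mitochondrial enzymes had changes between −0.05 and 0.08, and the groups overlapped in all of them except SerRS-m. LeuRS-m, at 8.15, 8.03 and 8.22 against 8.02, 8.16 and 8.09, shows this. MetRS-m, IleRS-m, TrpRS-m and AspRS-m were at −0.04, −0.04, −0.01 and 0.00. IleRS-m stood at 7.96, 7.88 and 7.95 against 7.91, 7.95 and 7.82, and TrpRS-m at 9.01, 8.99 and 8.99 against 9.04, 9.00 and 8.92. No order separates the groups in these genes.

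GluRS-m, ArgRS-m and SerRS-m were the members with a change above 0.05, at 0.06, 0.07 and 0.08. SerRS-m was at 9.57, 9.68 and 9.69 in Yki discs and at 9.70, 9.74 and 9.74 with pan RNAi, so that its groups were just apart in the upward direction (limma adjusted p = 0.276, 95% confidence interval −0.04 to 0.20). ArgRS-m was at 8.23, 8.27 and 8.33 against 8.35, 8.37 and 8.32 (limma adjusted p = 0.317). The SE of the fit had a median of 0.06 over the mitochondrial and 0.05 over the cytosolic enzymes. The cytosolic and mitochondrial sets were not tested against each other.

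Over the whole rule, groups were fully apart in the downward direction in 8 of 14 cytosolic and 4 of 13 mitochondrial enzymes, as in 21.6% of all features. They were apart upward in 0 and 1, as in 23.4% of all features. Relative to the mean of the Yki arrays, the median cytosolic enzyme lay at −0.17 in each of the 3 pan RNAi arrays. The median mitochondrial enzyme lay at −0.02, 0.01 and −0.08.

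For 8 amino acids both enzymes were measured, and the log2 level of the mitochondrial enzyme minus that of the cytosolic one was taken within each array. An offset common to all features of an array cancels in this difference, but one that depends on level does not. Only the shift of the difference between groups is read, since levels of different features cannot be set against each other. For arginine it was −1.40, −1.33 and −1.42 in Yki discs and −0.98, −1.02 and −1.10 with pan RNAi, a shift of 0.35 toward the mitochondrial enzyme. ArgRS fell here while ArgRS-m was level or slightly higher. For leucine the difference went from −0.92, −1.06 and −0.85 to −0.78, −0.69 and −0.73 (shift 0.21), and for tyrosine from −2.91, −2.82 and −2.99 to −2.77, −2.71 and −2.77 (shift 0.16).

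Serine shifted by 0.23, from −0.36, −0.21 and −0.23 to −0.01, 0.09 and −0.19. The changes of SerRS (−0.15) and SerRS-m (0.08) had opposite signs, but neither gene passed the threshold. These 4 pairs had groups without overlap. An exact two-sided permutation test of 3 against 3 arrays cannot go below p = 0.1, and each of the 4 reached that value (0.183 when adjusted over 11 pairs compared). With this number of arrays the shift cannot pass the threshold by this test in any single pair.

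The pairs of the other 4 amino acids shifted by −0.04 to 0.03 and overlapped. For asparagine both enzymes fell, and the difference was 0.26, 0.11 and 0.06 against 0.14, 0.10 and 0.07 (exact permutation p = 0.7). For isoleucine, tryptophan and valine neither enzyme passed the test, and valine had a shift of −0.01 (exact permutation p = 0.9). Outside the rule, PheRS-m minus beta-PheRS shifted by 0.22 without overlap (exact permutation p = 0.1) and PheRS-m minus alpha-PheRS by 0.18 with overlap (exact permutation p = 0.2). Shifts of different amino acids were not tested against each other.

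**Figure D3:**
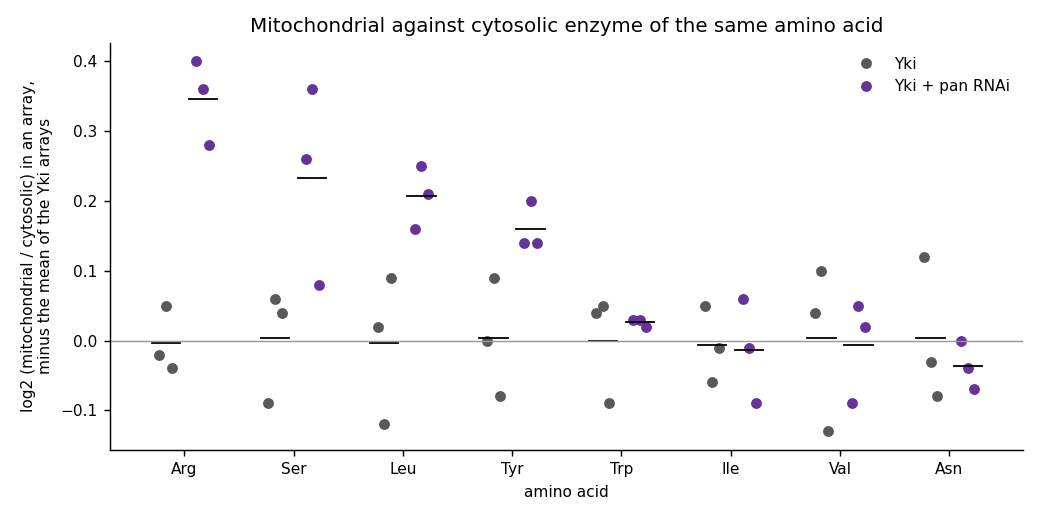
For 8 amino acids, the log2 level of the mitochondrial minus that of the cytosolic synthetase in each array, set to a mean of 0 over the Yki arrays (grey Yki, purple Yki + pan RNAi, lines are group means, n = 3 arrays per group). Arginine, serine, leucine and tyrosine shift upward by 0.16 to 0.35 and the other 4 lie within 0.04 of 0.

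By class, 4 of 8 cytosolic class I enzymes fell, with a median change of −0.21. Of 8 cytosolic class II enzymes, both PheRS subunits included, 3 fell, with a median of −0.14. In mitochondria 0 of 8 class I and 1 of 5 class II enzymes fell, with medians of −0.04 and −0.12 (limma, where 0 and 2 differed at an unadjusted p under 0.05). The 2 classes were not tested against each other. Of the 5 members that are parts of the multi-synthetase complex in vertebrates (ArgRS, LeuRS, GlnRS, IleRS and LysRS), 2 fell. The share that fell over all features was 13.4%.

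Other proteins of translation give the scale for these changes. Of 68 mitochondrial ribosomal protein genes, which build the ribosome that uses the tRNAs charged by the -m enzymes, 31 fell and 0 rose, with a median of −0.19. Of 39 cytoplasmic ribosomal protein genes, 8 fell and 0 rose, with a median of −0.08. The mitochondrial synthetases at −0.04 thus lay nearer to 0 than the mitochondrial ribosomal proteins, and the cytosolic synthetases at −0.15 further from it than the cytoplasmic ribosomal proteins. These sets were not tested against each other. The median of all features was 0.03, and 13.4% of them fell and 12.1% rose.

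**Figure D4:**
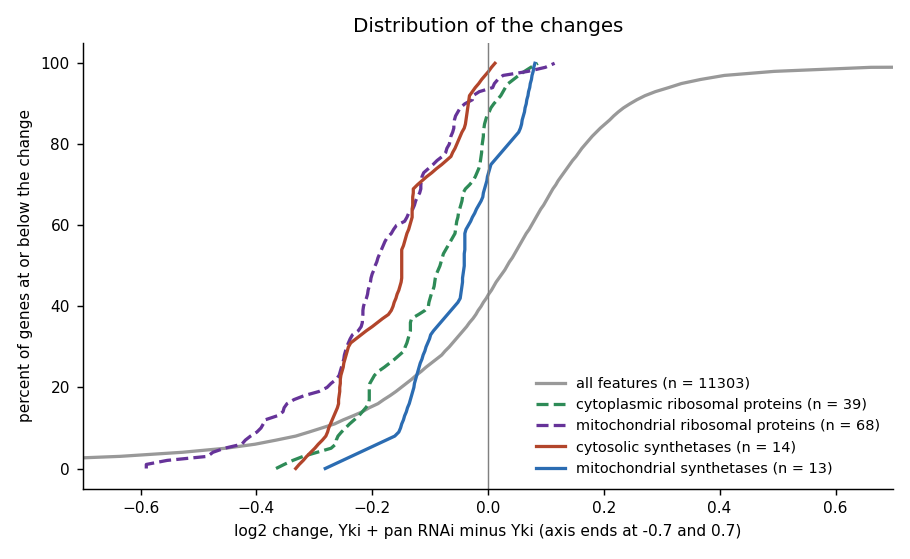
Percent of genes at or below each log2 change (Yki + pan RNAi minus Yki) for the cytosolic and mitochondrial synthetases, both kinds of ribosomal protein and all features tested. At the median, the cytosolic synthetases (−0.15) and mitochondrial ribosomal proteins (−0.19) lie left of the mitochondrial synthetases (−0.04) and of all features (0.03). The curves cross in the lower tail, where 5% of all features lie at or below −0.453, against −0.299 for the cytosolic synthetases.

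Genes that work beside the synthetases were taken from a list of 10, of which 8 were measured, and 4 fell and 0 rose with a median of −0.19. The shares over all features were 13.4% fallen and 12.1% risen. The scaffold gene AIMP3 was at 11.11, 11.15 and 11.18 in Yki discs and 10.87, 10.77 and 10.89 with pan RNAi, a change of −0.30 ± 0.05 (limma adjusted p = 0.00778). AIMP1, another scaffold gene, was at 10.77, 10.82 and 10.86 against 10.60, 10.53 and 10.60 (−0.24 ± 0.05, limma adjusted p = 0.0134). In size these falls resemble those of ArgRS and LeuRS, but also those of AsnRS (−0.24) and of TyrRS (−0.25), which acts outside the complex. GlnRS, IleRS and LysRS, parts of the same vertebrate complex, changed by −0.17, −0.03 and −0.06 and did not pass. AIMP2, the third scaffold gene, was at 10.64, 10.64 and 10.68 against 10.49, 10.46 and 10.56, apart in every array but not past the threshold (limma adjusted p = 0.0565). Without overlap and lower, as in the 3 scaffold genes, were 21.6% of all features.

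Dtd, which encodes a deacylase that frees tRNAs from D-amino acids, fell most in this list. It was at 8.88, 8.74 and 8.94 against 8.42, 8.36 and 8.29, or 1.40-fold lower (−0.49 ± 0.07, limma adjusted p = 0.00372). CG1750 changed by −0.24 ± 0.06 (limma adjusted p = 0.0362). The seryl-tRNA synthetase paralogue Slimp, a mitochondrial protein known not to charge tRNA, was at −0.01 (limma adjusted p = 0.920), and GatA, of the mitochondrial amidotransferase that completes glutaminyl-tRNA, at −0.05 (limma adjusted p = 0.544).

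In a list of the ATF4 and Gcn2 amino acid response, 3 of 11 measured genes fell and 1 rose, with a median of −0.01. Over all features 13.4% fell and 12.1% rose. The regulators themselves did not pass, with crc, the fly ATF4, at 0.00 (95% confidence interval −0.12 to 0.12), the eIF2alpha kinase genes Gcn2 and PEK at −0.02 and 0.00, and the phosphatase subunit gene PPP1R15 at −0.01. These are transcript levels, and neither the amount nor the activity of these proteins was measured. CG6287 was at 11.53, 11.76 and 11.74 in Yki discs and 10.96, 11.18 and 11.29 with pan RNAi (−0.53 ± 0.10, limma adjusted p = 0.0111). CG11899 changed by −0.44 ± 0.05 (limma adjusted p = 0.00272) and Nmdmc, an enzyme of mitochondrial folate metabolism, by −0.34 ± 0.09 (limma adjusted p = 0.0374). By contrast Sesn, a stress-induced inhibitor of TOR signalling, rose by 0.71 ± 0.19 (limma adjusted p = 0.0340), from 7.91, 7.40 and 7.31 to 8.55, 8.11 and 8.09. The list thus held changes in both directions.

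Of 16 measured genes of tRNA processing and modification, 0 fell and 1 rose in the limma fit, where 13.4% of all features fell and 12.1% rose, and the median was −0.05. At an unadjusted p under 0.05, 2 differed. The gene that rose was Rtca, an RNA 3′-phosphate cyclase, at 9.00, 9.04 and 8.96 against 9.40, 9.25 and 9.20 (0.28 ± 0.06, limma adjusted p = 0.0188). RNaseZ, which trims tRNA 3′ ends, Tgt, of the enzyme that inserts queuine, and the tRNA ligase gene RtcB were at −0.13, 0.16 and −0.15, all short of the threshold (limma adjusted p = 0.0859, 0.133 and 0.134).

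**Figure D5:**
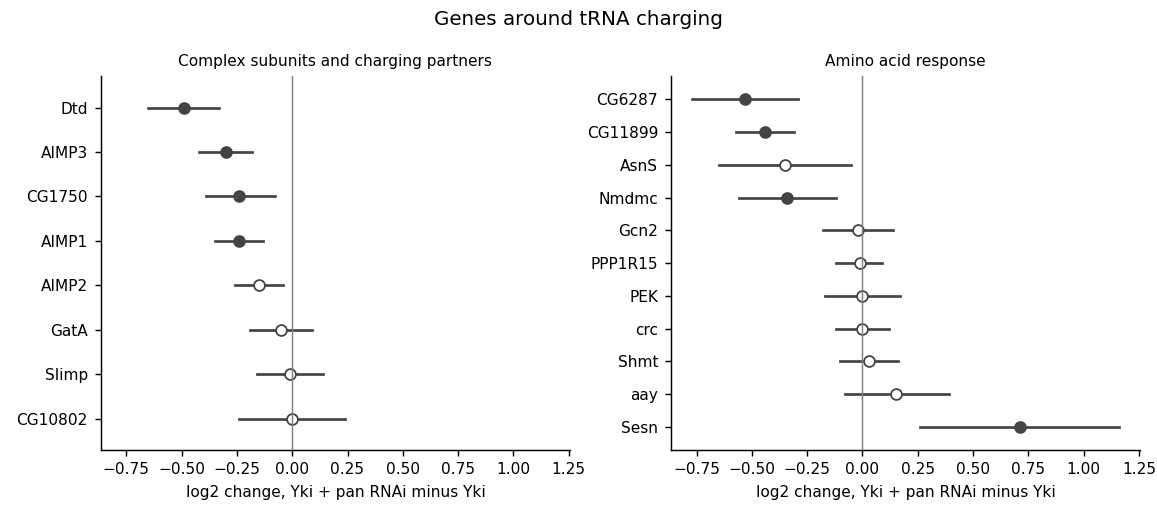
Log2 change (Yki + pan RNAi minus Yki) with 95% confidence interval of 8 genes that work beside the synthetases (left) and 11 genes of the amino acid response (right). Filled points passed the adjusted p. Dtd, AIMP3, AIMP1 and CG1750 lie below 0 at left, and at right CG6287, CG11899 and Nmdmc lie below and Sesn above 0.

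Marker levels of other cell types also differed between the groups. In bulk RNA, fewer cells of a type and less RNA per cell cannot be told apart. Of 6 measured markers of adepithelial myoblasts, the muscle precursors attached to the disc, 6 fell, and their summed linear level was 3003 to 3230 in the Yki arrays and 1397 to 1592 with pan RNAi. Of 7 genes listed as haemocyte markers 5 rose, with a summed level of 1775 to 1915 against 2454 to 2695. The brightest of them was ush, with group means of 9.55 and 10.14. Whether haemocytes were the source of this RNA was not tested. Of 6 genes listed as tracheal 4 fell, namely btl, bnl, Gasp and serp. The summed level of the 6 was 15280 to 15952 against 11855 to 13048. The brightest of them were verm, serp, Gasp and vvl. Whether trachea was the source of the RNA of any of the 6 genes, bnl included, was not tested. Of 4 fat body and 4 larval muscle markers 1 each fell (Col4a1 and Mlc2). By comparison 13.4% of all features fell and 12.1% rose. Of 9 measured markers of the disc epithelium itself, 4 rose and 4 fell. The selector gene ap rose, with group means of 10.89 and 11.27, and so did hh, dpp and ptc, at 0.38, 0.32 and 0.36. The wing pouch genes nub and pdm2 fell by 1.12 and 1.22 on the log2 scale, along with rn and vg. The part of these shifts in the synthetase levels was not tested. The main axis of a principal component analysis held 67.6% of the variance between arrays, and array pairs correlated at 0.994 to 0.996 within groups and 0.980 to 0.986 between them.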

How the data were processed

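The values are log2 expression levels of single-channel arrays that the authors deposited in 2 tables, whose values differ by at most 5.0e-09. How background was corrected and probes were normalized and summarised is not stated in the sources used here. Per the labels, the submitters used limma and selected genes at an adjusted p under 0.05 that changed at least 2-fold. Here members are called without the fold minimum. The deposited log2 levels run from 2.74 to 14.06, with array means of 8.516 to 8.524 and medians of 8.41 to 8.52, and each feature reaches 5.91 in at least 3 arrays, so silent genes are probably not covered. The number of arrays limits the precision.

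Of 11325 features, 10155 had 1 symbol in the platform annotation, 313 several and 857 none. Features with several FlyBase numbers (17) were left unnamed, and 9974 symbols were updated through Entrez numbers in the RefSeq table of Release 6 plus ISO1 MT, used for names and neighbours only. Of 22 genes with several features the brightest feature was kept, which left 11303. Groups were compared with limma 3.58.1 in R 4.3.3 (lmFit and eBayes, no covariate), tested on simulated data with 200 changed features. There 25.0% of features changed by 0.25 were called and 65.8% of those changed by 0.5. A member that did not pass may therefore still have changed. The simulation held fewer changed features than the 2887 called in the data, so these shares need not hold here. No label says that the samples are from separate animals or crosses. The p-values then reflect only the spread among these samples, and this may be technical. Pairs were compared with an exact permutation test in Python 3.11.15. Members and lists were chosen with earlier results of these data known. Every member is named. Array values are given for members past the adjusted p, for the 4 largest changes among the others and for amino acids with both enzymes. Other lists give the 4 genes of lowest p. Exceptions are the myoblast list, which names no gene, and the haemocyte list, which names only ush. The fat body and larval muscle lists name only the gene that fell. Array values of GlyRS, ProRS-m, PheRS-m, GluRS-m, AIMP2, alpha-PheRS and beta-PheRS fall outside this rule and were added after the values were seen. The same holds for the names of further list genes (AIMP2, Slimp, GatA, crc, Gcn2, PEK, PPP1R15, the disc markers hh, dpp, ptc and vg, and vvl and verm of the tracheal list). Alternatives were median centring, quantile normalization, leaving out dim features, another eBayes prior, the second table, averaged features, a replicate block and leaving out each array.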

Additional observations from a re-analysis of the deposited data

How the results depend on the processing

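All 8 synthetase calls, prefixed symbols included, were kept with median centring, quantile normalization, the dimmest 25% of features left out, eBayes with trend and robust, the series matrix values, averaged features and a replicate block. AlaRS and GlnRS were gained with trend and robust. Leaving out 1 array kept 6 to 8 of the 8 calls. Over all features the count called was 2887, or 173 with the fold minimum, and 1744 to 2435 with 1 array left out (765 to 1153 risen, 979 to 1282 fallen); 2096 rose with median centring. The cytosolic count of fallen members was 4 to 6 with 1 array left out and 8 without dim features, and the mitochondrial count 0 to 1. The cytosolic median was −0.16 to −0.14 with 1 array left out, −0.09 with median centring and −0.12 with quantile normalization. The mitochondrial median was −0.07 to 0.00, 0.01 and 0.02 under the same settings. The cytosolic minus mitochondrial difference of medians was −0.11, and −0.16 to −0.08 with 1 array left out. The sign of members near 0 turned with centring (IleRS 0.02, TrpRS 0.02, IleRS-m 0.01, LeuRS-m 0.01, MetRS-m 0.01, TrpRS-m 0.04) and with quantile normalization (TrpRS 0.02, IleRS-m 0.03, LeuRS-m 0.02, MetRS-m 0.01, TrpRS-m 0.02). With 1 array left out it turned for AspRS-m (−0.02 to 0.04), TrpRS (−0.07 to 0.00), ThrRS (−0.02 to 0.03), MetRS-m (−0.07 to 0.01) and TrpRS-m (−0.04 to 0.02). Median centring moved every change up by about 0.05. The cause of the other changes was not tested, other than that fewer arrays or features entered the fits that left some out.

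No sign of pairing by replicate number was seen. Deviations of same-numbered arrays correlated at −0.13, −0.10 and 0.16, and those of differently numbered arrays at −0.28 to 0.34. With 3 arrays per group the check cannot decide whether the arrays were paired. With the replicate number as a block, 2159 features were called, with 5 cytosolic and 1 mitochondrial member fallen and 0 risen.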

Other observations

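TyrRS and GluRS-m stand next to each other in the gene order of the RefSeq table, the 1 such pair among the measured synthetases. TyrRS fell (−0.25), and GluRS-m was at 7.53, 7.43 and 7.59 in Yki discs and 7.56, 7.60 and 7.56 with pan RNAi (0.06, limma adjusted p = 0.492). The log2 level of GluRS-m minus that of TyrRS was −3.08, −3.23 and −3.09 in Yki discs and −2.80, −2.80 and −2.88 with pan RNAi. The shift of 0.31 was without overlap (exact two-sided permutation p = 0.1, the smallest possible, and 0.183 adjusted over 11 pairs). The pair was picked after the gene order was read.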
